A study of Saccharomyces cerevisiae with 21 samples.

Results

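The comparison described here set gal11-myc med3Δ against gal11Δ med3Δ yeast, both grown in the rich medium YPD. It used 6 of the 21 arrays of the series, 3 for each mutant, and was made without a wild type array. The members are all 5449 Saccharomyces cerevisiae genes that the arrays measure, and the quantity is the log2 difference of the 2 group means, gal11-myc med3Δ minus gal11Δ med3Δ. RNA came from mid-log cultures at 30 °C and was hybridised as biotin-labelled target to Affymetrix arrays. Per the labels, gal11-myc med3Δ is a MATa strain with med3Δ::URA3 and GAL11-13MYC::HIS3MX, a Gal11 that carries a myc epitope tag. It also has his3Δ1, leu2Δ0, ura3Δ0 and srb4Δ::kanMX, and SRB4, an essential Mediator gene, is supplied on the CEN LEU2 plasmid RY2844. The strain gal11Δ med3Δ is labelled MATα, with med3Δ::kanMX4 and med15Δ::kanMX4 (MED15 is another name of GAL11), and with the alleles his3Δ1, leu2Δ0, met15Δ0 and ura3Δ0. Both mutants thus lack MED3 and differ in GAL11, in mating type, in marker genes and in the SRB4 plasmid, so a difference between them cannot be assigned to GAL11 alone. The wild type used below for orientation is labelled MATa his3Δ1 leu2Δ0 with met15Δ0 and ura3Δ0, and is named BY4741 in the authors' deposited table. The labels do not say that replicates came from separate cultures, so a p-value here measures only the spread between single arrays, which may be technical.

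Mediator is the large coactivator that links DNA-bound activators to RNA polymerase II. Its tail module, made of Med15 (Gal11), Med3 (Pgd1), Med2, Med5 (Nut1) and Med16 (Sin4), is the part that activators such as Gcn4 and Gal4 contact. Tail-dependent genes in yeast tend to be inducible genes, among them stress and nutrient genes, while most housekeeping genes depend little on the tail.

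The deposited values are log2 levels in which each gene is set to a median of 0 over the 9 YPD arrays, so they hold differences between arrays but no absolute level, and levels of different genes cannot be set against each other. The median gene had a standard deviation of 0.116 over the gal11-myc med3Δ arrays and 0.111 over the gal11Δ med3Δ arrays, and a median standard error of the difference of 0.097. Arrays numbered 3 stood apart from the other two in each YPD group. A difference of at least 2-fold from the mean of the other two was found for 97 genes in gal11-myc med3Δ replicate 3, against 13 and 31 genes in replicates 1 and 2. In gal11Δ med3Δ replicate 3 it was found for 20 genes, against 2 and 2, and in wild type replicate 3 for 105 genes, against 28 and 19. Counts for gene lists are therefore given below also without both mutant arrays numbered 3.

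A gene is called here when its limma adjusted p was under 0.05 and the groups differed 2-fold or more, and is said to have passed when the adjusted p was under 0.05 whatever the size. In gal11-myc med3Δ 29 genes were called higher (0.532% of 5449) and 65 lower (1.19%) than in gal11Δ med3Δ. At any size 125 genes passed higher (2.29%) and 336 lower (6.17%). The 94 called genes fall into 3 sets. The targeted, strain marker and mating type genes (strain genes below), GAL11 among them, gave 18, from 22 such genes measured. Genes of chromosome V other than URA3 gave 50, all lower. The other 26 comprised 17 higher and 9 lower genes. Same-numbered arrays of the mutants deviated together, most of all those numbered 3. With the replicate number as a block 45 genes were called higher and 66 lower, and 515 (9.45%) and 558 (10.2%) passed at any size. Without both arrays numbered 3, 71 were called higher and 87 lower, and 695 (12.8%) and 886 (16.3%) passed. The list counts below are to be read beside these shares of all genes. Leaving out gal11-myc med3Δ replicate 3 alone gave 86 genes called higher and 88 called lower, the largest counts among the 6 fits that each left out 1 array. Of the 114 genes named in this text, 79 passed with all 6 arrays. All 79 passed in the same direction without both arrays numbered 3, and 24 more passed then. That fit uses part of the same 6 arrays, with 2 residual degrees of freedom, so it is no independent check. It was chosen after the deviation of the arrays numbered 3 was seen. Of the 61 named genes that were called, 56 were called without those arrays too, and the difference was between 0.715 and 1.26 times that with all 6 arrays. The other 5, SER3, TIR1, CWP1, YNL034W and YMR244W, passed but were just under 2-fold, at -0.88, -0.85, 0.96, -0.99 and -0.85.

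The genes altered by construction came first as a check of the labels. GAL11 was at -0.12, 0.00 and 0.44 in the gal11-myc med3Δ arrays, against -5.45, -6.00 and -5.76 in the gal11Δ med3Δ arrays, and at 0.60, 0.56 and 0.93 in the wild type. It was higher in gal11-myc med3Δ by 5.84 ± 0.19 (log2, SE; adjusted p = 1.83e-05), the direction that the labels give. The gene is deleted in gal11Δ med3Δ, so the level there is what the probe set reads without its RNA, and the size of the difference is limited by it. The deposited centring leaves no signal over background, so the same holds for any marker or mating type gene below that one strain may not transcribe, and these sizes are differences of array readings and no fold of RNA. PGD1, the name under which the array lists MED3, was low in both mutants, at 0.14, -0.09 and -0.07 in gal11-myc med3Δ and 0.00, -0.48 and -0.15 in gal11Δ med3Δ, against 4.33, 4.54 and 4.02 in the wild type. The mutants did not differ in it beyond their spread (0.20 ± 0.14, adjusted p = 0.403), and the fold changes in the authors' deposited table give a difference of 0.64, for which no test was made. URA3, the marker that replaced MED3 in gal11-myc med3Δ and encodes orotidine-5'-phosphate decarboxylase of uracil synthesis, was at 7.55, 7.56 and 7.02 there, against -0.26, -0.48 and 0.00 in gal11Δ med3Δ. LEU2, the leucine synthesis gene on the SRB4 plasmid, was at 4.67, 4.05 and 1.54, against -0.55, -0.66 and -0.36. Its replicate 3 in gal11-myc med3Δ was thus far below the other two, and its difference of 3.94 ± 0.76 (adjusted p = 0.0267) missed the threshold in 5 of the 6 fits that left out 1 array, at up to 0.112, and passed without gal11-myc med3Δ replicate 3. It also missed it at 0.0576 when chromosome V genes were left out of the fit.

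LYS2, which encodes α-aminoadipate reductase of lysine synthesis, was at 0.20, 0.18 and 0.48 in gal11-myc med3Δ, against -6.42, -6.65 and -6.36 in gal11Δ med3Δ (6.76 ± 0.12, adjusted p = 1.49e-06). The label of gal11Δ med3Δ lists no lys2 allele. MET17, the gene of the met15Δ0 allele, was at 0.28, 0.00 and -0.09 in gal11-myc med3Δ, whose label lists no such deletion, and at 0.13, 0.33 and 0.00 in gal11Δ med3Δ, so the mutants did not differ in it beyond their spread. HIS3 was at 0.19, 0.12 and 0.24, against 0.00, -0.09 and 0.07 (0.19 ± 0.07, adjusted p = 0.168). SRB4 is not among the genes measured.

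**Figure D1:**
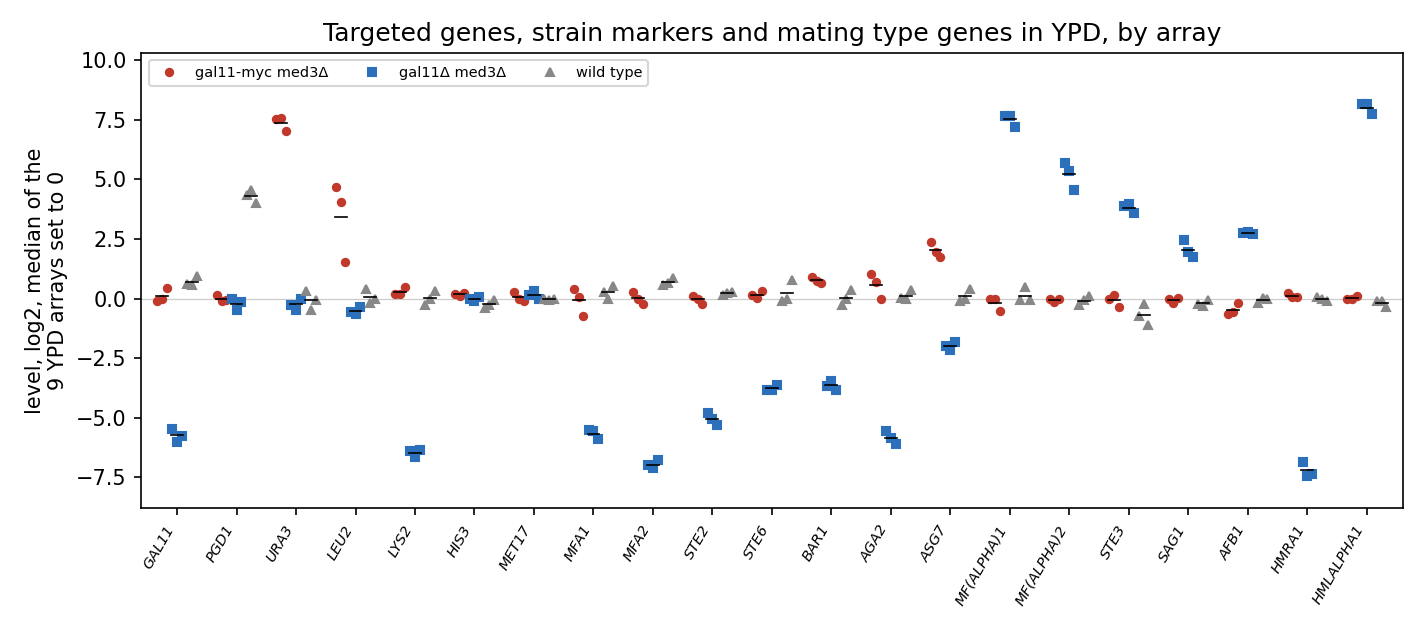
Levels of the targeted genes, strain markers and mating type genes in each YPD array (log2, the median of the 9 YPD arrays set to 0). Circles are gal11-myc med3Δ, squares gal11Δ med3Δ and triangles wild type, with 3 arrays each in the order of their replicate numbers, and short lines are means. The a-specific genes lie near the wild type in gal11-myc med3Δ and far below it in gal11Δ med3Δ, and the α-specific genes show the opposite order.

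Mating type gave the largest differences. Haploid a cells transcribe a-specific genes for a-factor, its export and the α-factor receptor, and in α cells the MATα1 protein turns on the α-specific genes while MATα2 represses the a-specific ones. All 7 a-specific genes were called higher in gal11-myc med3Δ and all 5 α-specific genes were called lower. The a-factor gene MFA2 was at 0.29, 0.00 and -0.25 in gal11-myc med3Δ, against -7.00, -7.11 and -6.79 in gal11Δ med3Δ (6.98 ± 0.15, adjusted p = 3.51e-06). The other a-specific differences were 6.41 for AGA2 (a-agglutinin subunit), 5.58 for MFA1 (a-factor), 5.03 for STE2 (α-factor receptor), 4.43 for BAR1 (protease that degrades α-factor), 4.02 for ASG7 and 3.92 for STE6 (a-factor exporter). On the α side, MF(ALPHA)1, the main α-factor gene, differed by -7.68 ± 0.19 (adjusted p = 5.16e-06). The differences were -5.26 for MF(ALPHA)2, -3.87 for STE3 (a-factor receptor), -3.22 for AFB1 (a-factor barrier) and -2.10 for SAG1 (α-agglutinin). These differences go with the labelled mating types of the strains.

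The genes of the mating type cassettes differed in the same way. HMLALPHA1, which reads the α1 gene, was at -0.04, 0.00 and 0.09 in gal11-myc med3Δ, against 8.15, 8.15 and 7.74 in gal11Δ med3Δ (-7.99 ± 0.13). HMRA1, which reads the a1 gene, was at 0.22, 0.07 and 0.05, against -6.84, -7.43 and -7.35 (7.32 ± 0.16). HMRA2 passed lower, at -0.99 ± 0.08. The silent cassettes share sequence with the MAT locus, so these probe sets cannot separate a cassette from MAT. YNL146C-A, an uncharacterised open reading frame whose number neighbours that of MFA2 (YNL145W), was called higher at 4.01 ± 0.24 (adjusted p = 0.000364).

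Genes that both mating types use in the pheromone response did not follow. Of 29 pheromone response and cell fusion genes none passed higher and 1 lower, and their median difference of 0.05 lay beside 0.02 over all genes. The gene that passed was PRM5 (-0.49 ± 0.11, adjusted p = 0.0455). FIG1, a cell fusion gene, was at 1.94, 1.29 and -0.37 in gal11-myc med3Δ, against -0.20, 0.00 and -0.68 in gal11Δ med3Δ, and PRM6 at 2.34, 1.44 and -0.61, against 0.40, 0.01 and -0.24. In both genes replicate 3 of gal11-myc med3Δ was the lowest of its group and overlapped gal11Δ med3Δ. With the replicate block 3 of the 29 passed higher and 2 lower, and without both arrays numbered 3, 8 and 2 did. Of all genes 9.45% passed higher and 10.2% lower with the block. Without both arrays numbered 3 these shares were 12.8% and 16.3%. None of 13 haploid-specific genes passed in either direction (1 higher with the block, 2 higher without both arrays numbered 3).

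Apart from GAL11, no Mediator gene passed. Among the other tail genes, MED2 was at -0.05, 0.02 and -0.07 in gal11-myc med3Δ and -0.01, 0.28 and 0.00 in gal11Δ med3Δ (-0.13 ± 0.09). SIN4 differed by 0.02 ± 0.10 and NUT1 by 0.00 ± 0.07, with adjusted p-values of 0.936 and 0.999. The 19 measured genes of the head, middle and kinase modules had a median difference of -0.06. Their lowest and highest differences were those of 2 middle module genes, MED7 at -0.28 ± 0.10 (adjusted p = 0.167) and NUT2 at 0.25 ± 0.10 (adjusted p = 0.189). With the replicate block 2 of the 19 passed lower, MED7 among them (adjusted p = 0.0253), and without both arrays numbered 3, 2 passed higher and 2 lower.

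Chromosome V accounted for most genes that were lower in gal11-myc med3Δ. It holds 259 of the measured genes (4.75%), and 254 of them had a difference below 0. Their median difference was -0.80, with quartiles of -0.94 and -0.52, whereas the medians of the other 15 chromosomes lay between 0.02 and 0.05. On chromosome V 204 genes passed lower and 1 higher, URA3. Off chromosome V 124 genes passed higher (2.39% of 5190) and 132 lower (2.54%). The shift ran over the whole chromosome, with a median of -0.76 over the 68 genes of the left arm and -0.81 over the 191 genes of the right arm. In 10 successive bins of 25 or 26 genes the medians lay between -0.84 and -0.68.

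**Figure D2:**
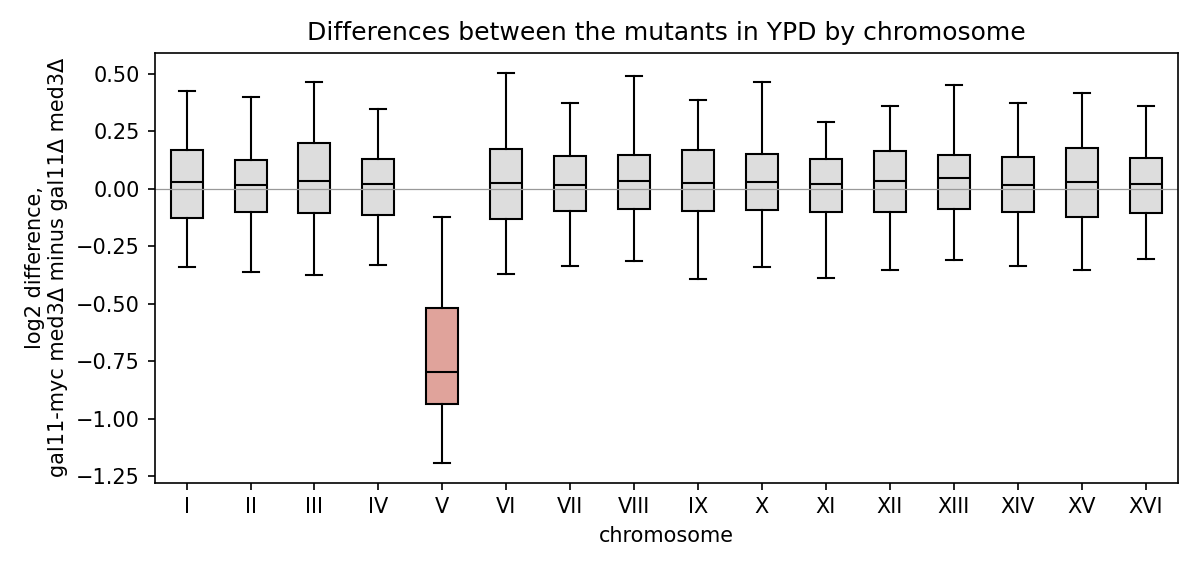
Log2 differences between the mutants in YPD for the genes of each chromosome. Boxes show the quartiles and median over genes, and whiskers the 5th and 95th percentiles. The box of chromosome V lies below 0, with a median of -0.80, and the medians of the other chromosomes lie close to 0.

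The arrays that stood apart were those of gal11Δ med3Δ. The median level of chromosome V genes minus that of all other genes was -0.07, -0.08 and -0.08 in the gal11-myc med3Δ arrays, against 0.65, 0.62 and 0.65 in the gal11Δ med3Δ arrays, and -0.09, -0.07 and -0.10 in the wild type. All 3 gal11Δ med3Δ arrays were thus high, while gal11-myc med3Δ lay with the wild type. In CSM, a complete synthetic medium, the same quantity was 0.00, 0.00 and -0.01 in gal11-myc med3Δ and 0.10, 0.04 and 0.00 in gal11Δ med3Δ, so no such offset between the mutants was seen there. Values in CSM are centred over the 9 CSM arrays, and an offset that all CSM groups shared would not show. Copy number was not measured, and in RNA from whole cultures a shift in all cells cannot be told apart from a larger shift in some of them. The differences of single chromosome V genes given below include this offset. With chromosome V genes moved in each array to the median of the other genes, an alternative chosen after the shift was seen, 14 genes in place of 65 were called lower, and without chromosome V genes 13 were. After that move none of the 50 chromosome V genes called lower was still called. Of the chromosome's genes 31 passed higher and 10 lower. Off the chromosome, SRT1 and MAL33 also missed the threshold in that fit (adjusted p = 0.0646 and 0.0521). With chromosome V genes left out, GPH1, GTO3, SRT1, MAL33 and TKL2 missed it, at 0.0548 to 0.0762.

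**Figure D3:**
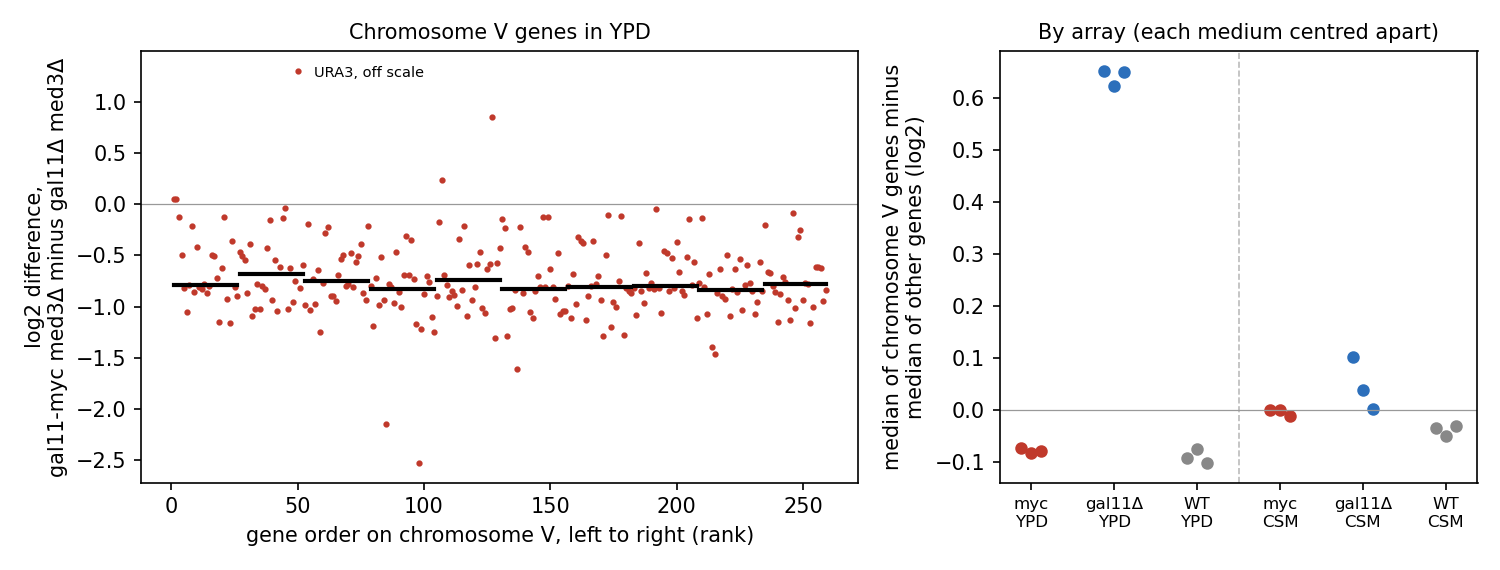
Left, the log2 difference between the mutants for each gene of chromosome V in YPD, by gene order, with the medians of 10 bins as black lines and URA3 drawn at the upper edge. Right, the median of chromosome V genes minus the median of all other genes in each array, with red for gal11-myc med3Δ, blue for gal11Δ med3Δ and grey for wild type (WT). The 3 gal11Δ med3Δ arrays in YPD lie between 0.62 and 0.65, and the highest of the other arrays shown lies at 0.10.

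On chromosome V 50 genes were called lower, 10 on the left arm and 40 on the right, with folds of up to 5.76. The largest difference was that of MIG3, a zinc finger repressor of the glucose-repression family. It was at -0.15, -0.64 and 1.58 in gal11-myc med3Δ, against 2.76, 2.83 and 2.78 in gal11Δ med3Δ (-2.53 ± 0.53, adjusted p = 0.0371). The value of 1.58 was from replicate 3, and the adjusted p ran up to 0.139 in the 5 fits that left out another array. FAA2, a peroxisomal acyl-CoA synthetase for medium-chain fatty acids, was at -0.50, -0.50 and 0.39, against 1.66, 1.62 and 2.57 (-2.15 ± 0.34, adjusted p = 0.0131; 0.0603 without gal11-myc med3Δ replicate 1 and 0.0522 without its replicate 2). Both genes lay more than 1 log2 unit below the median of their chromosome, and with the chromosome moved their differences were -1.81 and -1.43, at adjusted p-values of 0.121 and 0.0802.

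The other large chromosome V differences were closer to the common shift. CEM1, a mitochondrial fatty acid synthase, differed by -1.61 ± 0.24. The neighbours DDI1 (YER143W) and MAG1 (YER142C), genes of the DNA damage response that are transcribed away from a shared upstream region, differed by -1.46 ± 0.12 and -1.39 ± 0.20. The differences were -1.31 for GIP2 (a regulatory subunit of the Glc7 phosphatase), -1.29 for PET117 (cytochrome c oxidase assembly), -1.28 for AIM11, -1.28 for SSA4 (a stress-induced Hsp70) and -1.25 for both YER034W and UBC8 (a ubiquitin-conjugating enzyme). SMB1 (a spliceosome core protein), AFG1 (a mitochondrial ATPase) and HAT2 (a histone acetyltransferase subunit) had differences of -1.22, -1.16 and -1.15. The spread of AFG1 was small, at -0.30, -0.27 and -0.20 in gal11-myc med3Δ, against 0.93, 0.87 and 0.89 in gal11Δ med3Δ. All 17 called chromosome V genes named in this text lost their call once the chromosome was moved to the median of the others. Of these, DDI1, AIM11, YER034W, SMB1 and AFG1 still passed lower there, at differences of -0.74, -0.57, -0.53, -0.50 and -0.44. With the offset left in, 9 of the 17 kept their call in each of the 6 fits that left out 1 array. The other 8 were FAA2, GIP2, MAG1, MIG3, PET117, SER3, TIR1 and UTR2, of which MIG3 and PET117 missed the threshold in every fit but the one without gal11-myc med3Δ replicate 3. SER3 (serine synthesis, -1.11) was called in that fit alone as well, and TIR1 (a cell wall mannoprotein of low oxygen, -1.19) in that without gal11-myc med3Δ replicate 2 alone. The adjusted p reached 0.131 for PET117, 0.168 for SER3 and 0.107 for TIR1. GIP2 missed the threshold without gal11-myc med3Δ replicate 1 (0.0545) and without replicates 1 and 2 of gal11Δ med3Δ (0.0633 and 0.0541), and MAG1 without the same replicates 1 and 2, each in turn (0.0534 and 0.0533).

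In a few genes of chromosome V the difference was not below 0 or lay close to it. Besides URA3, 4 genes did not lie below 0, named here after their values were seen. They were YER053C-A (0.85 ± 0.31, adjusted p = 0.156 and 0.0391 with the replicate block), PHM8 (0.23 ± 0.54) and 2 genes at the left end of the chromosome, YEL076C and YEL076C-A (0.05 ± 0.12 and 0.06 ± 0.34). With the chromosome moved to the median of the others, YER053C-A was called higher at 1.57 (limma adjusted p = 0.0497). YEL076C passed higher there at 0.77 (0.0285). All 6 cytosolic ribosomal protein genes of the chromosome lay between -0.14 and -0.04, with a median of -0.12, and none passed. Yeast ribosomal protein genes mostly come as near-identical pairs on different chromosomes, so their levels may include RNA of the partner, which was not tested. In all, 21 genes lay above -0.2. The 8 genes whose probe sets are of the types that the array maker marks as matching more than 1 transcript (suffix _s or _x) had a median of -0.13, against -0.80 for the other 251. Of the 21 genes, 5 had such probe sets, while most of the 6 ribosomal protein genes did not. The 21 also held genes of neither kind.

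Iron genes held more genes called higher than any other of the metabolic and stress lists. Yeast short of iron induces, through the activators Aft1 and Aft2, cell wall mannoproteins that hold siderophores, siderophore transporters and the high-affinity oxidase and permease. Of 27 iron genes 10 passed higher and 1, on chromosome V, lower, and 5 were called higher, with a median of 0.28 against 0.02 over all genes (2.29% of genes passed higher). With the replicate block 14 passed higher and 3 lower, and without both arrays numbered 3, 16 and 3 did. FIT1, a siderophore-holding mannoprotein, was at 1.53, 1.48 and 1.66 in gal11-myc med3Δ, against -0.33, -0.34 and -0.19 in gal11Δ med3Δ (1.84 ± 0.08, adjusted p = 7.48e-05). Its relative FIT2 was at 0.54, 0.41 and -0.17, against -1.58, -1.44 and -2.07 (1.96 ± 0.23, adjusted p = 0.004), and FIT3 was at 0.64, 0.69 and 0.26, against -1.31, -1.27 and -1.24 (1.81 ± 0.12, adjusted p = 0.00049). The groups did not overlap for any of the 3 genes, and all 3 kept their call without any 1 array.

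The multicopper oxidase gene FET3 was at 0.00, 0.17 and -0.28 in gal11-myc med3Δ, against -0.89, -1.14 and -1.26 in gal11Δ med3Δ (1.06 ± 0.15, adjusted p = 0.0069). The siderophore transporter ARN2, named outside the naming rule because it was a called member of the list, differed by 1.04 ± 0.10 (adjusted p = 0.0015). Both were close to the 2-fold limit and fell under it without 1 array, FET3 at 0.96 without gal11-myc med3Δ replicate 2 and 0.98 without gal11Δ med3Δ replicate 3, and ARN2 at 0.99 without gal11-myc med3Δ replicate 1 and 0.95 without gal11Δ med3Δ replicate 2. LSO1, a small protein gene known to be induced by iron deprivation and not a member of the list, had the largest difference after YNL146C-A outside the strain genes and chromosome V. It was at 2.14, 2.39 and 2.26 in gal11-myc med3Δ, against -0.36, -0.83 and -0.05 in gal11Δ med3Δ (2.67 ± 0.20, adjusted p = 0.00068). TIS11, which encodes an mRNA-decay factor of low iron, was at 1.42, 1.63 and 0.37, against -0.11, 0.00 and -0.73 (1.42 ± 0.36, adjusted p = 0.0661; 0.0027 with the replicate block). The wild type did not give a stable level for these genes. LSO1 was at -0.85, 0.00 and 2.92 there, FIT1 at -0.28, 0.00 and 1.12, FIT2 at 0.00, 0.30 and 1.89 and ARN2 at -0.33, 0.00 and 1.81, each time highest in replicate 3.

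The phosphate genes had a positive median, but few of them passed. Under phosphate limitation the activator Pho4 induces secreted acid phosphatases and phosphate transporters. Of 23 phosphate genes 2 passed higher and none lower, with a median of 0.46 against 0.02 over all genes. With the replicate block 15 passed higher and 1 lower, and without both arrays numbered 3, 14 and 1 did. The shares of all genes that passed higher were 2.29%, 9.45% with the block and 12.8% without both arrays numbered 3. In replicate 3 the median phosphate gene was 0.41 below the mean of the other two arrays in gal11-myc med3Δ and 0.29 below it in gal11Δ med3Δ. PHO3, a constitutive acid phosphatase, was called higher at 1.05 ± 0.18 (adjusted p = 0.018; up to 0.0817 in the 6 fits that left out 1 array, of which those without replicates 1 and 2 of gal11-myc med3Δ and replicates 1 and 3 of gal11Δ med3Δ did not call it). PHO89, a sodium-phosphate cotransporter, was at 1.69, 1.38 and 0.76 in gal11-myc med3Δ, against 0.35, 0.00 and -1.03 in gal11Δ med3Δ (adjusted p = 0.0724 and 0.0018 with the block). PHO5, the repressible acid phosphatase, was at 1.21, 1.21 and -0.37, against 0.07, 0.00 and -1.76 (adjusted p = 0.276 and 0.0015 with the block). In these 2 genes each array of gal11-myc med3Δ lay above the array of gal11Δ med3Δ with the same number.

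Zinc and thiamine genes mostly gave smaller differences. Over all genes 2.29% passed higher and 6.17% lower. Of 16 zinc genes 3 passed higher and none lower (5 higher with the block, 5 higher and 1 lower without both arrays numbered 3), among them FET4, a low-affinity iron and zinc transporter (0.86 ± 0.13), and ZAP1, the zinc-responsive activator (0.52 ± 0.08). Of 19 thiamine and vitamin B6 genes 3 passed higher and 1 lower (7 and 1 with the block and also without both arrays numbered 3). The only called one was PHO3, which is counted in the phosphate list as well. THI13, a pyrimidine synthesis gene of the thiamine pathway with near-identical relatives that its probe set may also read, passed higher at 0.66 ± 0.07, and THI73, a putative permease, passed lower at -0.61 ± 0.10. The thiamine transporter THI7 had a difference of 1.02 ± 0.28 (adjusted p = 0.0809 and 0.046 with the block).

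Several genes for fatty acid breakdown were lower in gal11-myc med3Δ. Peroxisomal β-oxidation and the carnitine shuttle let yeast use fatty acids, and glucose represses both. Of 23 such genes 7 passed lower and none higher, 5 of the 7 off chromosome V, with a median of -0.32 (6.17% of all genes passed lower). With the block 10 passed lower, and without both arrays numbered 3, 12 did, again with none higher. POX1, the acyl-CoA oxidase of the first step, was at -0.06, 0.00 and 0.09 in gal11-myc med3Δ, against 2.07, 1.87 and 2.53 in gal11Δ med3Δ and -0.74, -1.54 and -1.97 in the wild type (-2.15 ± 0.17, adjusted p = 0.000829). SPS19, the dienoyl-CoA reductase for unsaturated fatty acids, was at -0.05, 0.40 and 0.00, against 1.39, 1.22 and 1.37 (-1.21 ± 0.13, adjusted p = 0.0028). Neither gene's groups overlapped, and both kept their call without any 1 array. FAA2, described with chromosome V, was the third called member. YAT2, a carnitine acetyltransferase gene of chromosome V, passed lower at -0.69 ± 0.07 and lay at 0.02 once its chromosome was moved to the median of the others.

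Glucose-repressed and gluconeogenic genes did not move together. Of 29 genes 1 passed higher and 4 lower, 3 of the lower ones off chromosome V (1 and 7 with the block, 5 and 14 without both arrays numbered 3). The shares of all genes were 2.29% higher and 6.17% lower. They were 9.45% and 10.2% with the block, and 12.8% and 16.3% without both arrays numbered 3. Called lower were MIG3, described with chromosome V, and MDH2, the cytosolic malate dehydrogenase. MDH2 is named outside the naming rule because it was a called member of the list. It was at a mean of -1.13 ± 0.13 in gal11-myc med3Δ, against -0.04 ± 0.16 in gal11Δ med3Δ and 1.60 ± 0.06 in the wild type (SD, n = 3 each). Its difference was -1.09 ± 0.11 (SE, limma adjusted p = 0.002). Other members had positive differences and a wide spread in gal11-myc med3Δ. FBP1, fructose-1,6-bisphosphatase, was at 2.28, 0.00 and -1.18, against -1.16, -1.04 and -1.48 (1.60 ± 0.81, adjusted p = 0.276), and MLS1, malate synthase, differed by 1.21 ± 0.53 (adjusted p = 0.219). SFC1, a mitochondrial succinate-fumarate carrier, differed by 1.48 ± 0.47 (adjusted p = 0.116). Without both arrays numbered 3, MLS1 and SFC1 passed higher (0.0301 and 0.0042) and FBP1 did not (0.0765). No gene of the glycolysis list (21 genes), the hexose transporters (17) or the galactose genes (7) passed. With the block 1 and 3 of the glycolysis genes passed higher and lower, and 1 hexose transporter passed higher. Without both arrays numbered 3, 1 and 5 of the glycolysis genes, 4 and 3 of the hexose transporters and 0 and 3 of the galactose genes passed higher and lower.

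**Figure D4:**
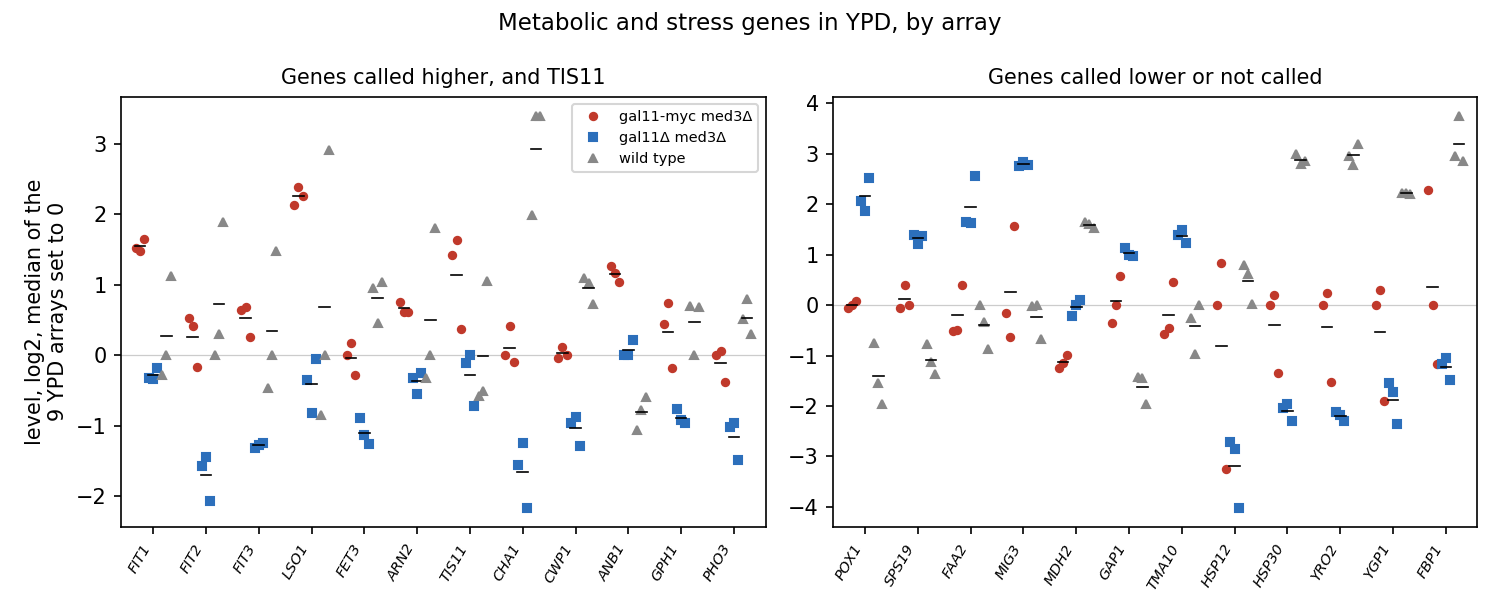
Levels of 24 metabolic and stress genes in each YPD array (log2, the median of the 9 YPD arrays set to 0), with circles for gal11-myc med3Δ, squares for gal11Δ med3Δ, triangles for wild type and short lines for means. The FIT genes and LSO1 are higher and POX1 and SPS19 lower in all 3 gal11-myc med3Δ arrays than in all 3 gal11Δ med3Δ arrays. HSP12, HSP30, YRO2, YGP1 and FBP1 are spread widely in gal11-myc med3Δ, with the lowest value in replicate 3, which overlaps gal11Δ med3Δ for HSP12, YGP1 and FBP1.

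Among nitrogen genes, which GATA activators induce when good nitrogen sources are lacking, 1 of 30 passed higher and 7 lower, 2 of the lower ones on chromosome V (3 and 11 with the block and also without both arrays numbered 3). The shares over all genes were 2.29% higher and 6.17% lower. The general amino acid permease gene GAP1 passed lower, at -0.35, 0.00 and 0.57 in gal11-myc med3Δ, against 0.97 to 1.14 in gal11Δ med3Δ (-0.96 ± 0.22, adjusted p = 0.049). GDH2, the catabolic glutamate dehydrogenase, differed by -0.88 ± 0.34 (adjusted p = 0.179 and 0.0391 with the block), and GLN3, the GATA activator itself and a chromosome V gene, passed lower at -0.85 ± 0.11. The proline permease gene PUT4 lay the other way, at 0.79, 1.01 and -0.27, against -0.64, -0.50 and -0.84 (1.17 ± 0.32, adjusted p = 0.0823 and 0.0226 with the block). CHA1, the serine and threonine deaminase induced by these amino acids, was called higher. It was at 0.00, 0.41 and -0.09 in gal11-myc med3Δ, against -1.56, -1.24 and -2.17 in gal11Δ med3Δ (1.76 ± 0.25, adjusted p = 0.0086), while the wild type was higher than both at 1.99, 3.40 and 3.39.

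Amino acid and nucleotide synthesis genes showed small differences. Of 51 amino acid genes controlled by Gcn4, 3 passed higher and 5 lower, all 5 lower ones on chromosome V (13 and 7 with the block, 12 and 7 without both arrays numbered 3). The shares over all genes were 2.29% higher and 6.17% lower. ARG1, argininosuccinate synthetase, passed higher at 0.90 ± 0.17 (adjusted p = 0.0244), and ARG3, ornithine carbamoyltransferase, had a difference of 0.98 ± 0.26 (adjusted p = 0.0727 and 0.0068 with the block). Beside LYS2, 3 of the other 8 lysine genes passed higher, and no lysine gene lower (7 of the 9 higher with the block and also without both arrays numbered 3). LYS20, homocitrate synthase of the first step, was at 0.00, 0.03 and -0.36, against -0.97, -0.99 and -1.13 (0.92 ± 0.12, adjusted p = 0.0058), and LYS1, saccharopine dehydrogenase of the last step, differed by 0.39 ± 0.07. LYS4, homoaconitase, had a difference of 0.52 (adjusted p = 0.0647 and 0.0168 with the block). Of 11 uracil pathway genes 4 passed higher, URA3 included, and 2 lower (5 and 2 with the block, 4 and 2 without both arrays numbered 3). PPR1, the activator of the pathway, passed higher at 0.84 ± 0.19 and URA7, CTP synthetase, at 0.58 ± 0.11, while URA1, dihydroorotate dehydrogenase, passed lower at -0.74 ± 0.13. None of the 33 sulfur amino acid genes passed (2 higher with the block, 1 higher and 6 lower without both arrays numbered 3).

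Stress genes differed in both directions. Of 34 heat shock and chaperone genes none passed higher and 9 lower, 8 of them off chromosome V, with a median of -0.29 (3 and 10 with the block, 3 and 21 without both arrays numbered 3). Over all genes 6.17% passed lower, and off chromosome V 2.54% did. With the block 10.2% of all genes passed lower, and without both arrays numbered 3, 16.3% did. CUR1, a chaperone-system factor that sorts misfolded proteins, passed lower at -0.96 ± 0.13 (adjusted p = 0.0058). The small heat shock gene HSP12 was at 0.00, 0.83 and -3.25 in gal11-myc med3Δ, against -2.72, -2.86 and -4.02 in gal11Δ med3Δ (2.39 ± 1.04, adjusted p = 0.214 and 0.0445 with the block). HSP30, a plasma membrane stress protein, was at 0.00, 0.20 and -1.35, against -2.04, -1.96 and -2.29 (1.71 ± 0.40, adjusted p = 0.0502 and 0.0158 with the block). In both genes replicate 3 was the lowest array of each mutant.

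Of 42 genes of the general stress programme of Msn2 and Msn4, 6 passed higher and 1 lower (16 and 1 with the block, 17 and 2 without both arrays numbered 3). Over all genes 2.29% passed higher (9.45% with the block, 12.8% without both arrays numbered 3). GPH1, glycogen phosphorylase, was called higher at 1.22 ± 0.23 (adjusted p = 0.0243), and so was GAD1, glutamate decarboxylase, at 1.07 ± 0.18 (adjusted p = 0.015). GPH1 kept its call in 1 of the 6 fits without 1 array, that without gal11-myc med3Δ replicate 3, with an adjusted p of up to 0.104. GAD1 was not called without gal11-myc med3Δ replicate 1 or gal11Δ med3Δ replicate 2 (0.0627 and 0.0678) or, at 0.92, without gal11-myc med3Δ replicate 2. YRO2, a relative of HSP30, differed by 1.77 ± 0.44 (adjusted p = 0.0632 and 0.0278 with the block), and YGP1, a cell wall glycoprotein of starvation, by 1.34 ± 0.58 (adjusted p = 0.211 and 0.0399 with the block). The wild type lay above both mutants in YRO2, at 2.97, 2.78 and 3.19, and in YGP1, at 2.22, 2.22 and 2.21.

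Of 47 cell wall and cell separation genes 1 passed higher and 3 lower, 2 of these on chromosome V (6 and 7 with the block, 9 and 8 without both arrays numbered 3). With all 6 arrays these counts lay near the shares over all genes, 2.29% higher and 6.17% lower. The higher one was CWP1, a cell wall mannoprotein, at -0.04, 0.12 and 0.00 in gal11-myc med3Δ, against -0.96, -0.88 and -1.28 in gal11Δ med3Δ (1.07 ± 0.12, adjusted p = 0.003; 0.94 without gal11Δ med3Δ replicate 3). UTR2, a chitin transglycosylase gene of chromosome V, was called lower at -1.02 ± 0.08 and was just under 2-fold in 3 fits without 1 array, with -0.97 without gal11Δ med3Δ replicate 2. SPI1, a wall protein gene of the same chromosome, differed by -0.83 ± 0.54 (adjusted p = 0.393 and 0.0105 with the block). Of 22 low oxygen and heme genes 3 passed higher and 4 lower, 3 of the lower ones on chromosome V (5 and 6 with the block and also without both arrays numbered 3). ANB1, the hypoxic form of translation factor eIF5A, was at 1.27, 1.17 and 1.04, against 0.00, 0.00 and 0.22 (1.09 ± 0.10, adjusted p = 0.0013). The lower ones on chromosome V were TIR1, CYC7, the hypoxic cytochrome c (-0.77 ± 0.15), and HEM14 of heme synthesis (-0.94 ± 0.09).

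The 26 called genes outside the strain genes and chromosome V also held genes of no list. YNL018C, uncharacterised, was at -0.44, -0.48 and -0.23 in gal11-myc med3Δ, against 0.97, 0.96 and 1.65 in gal11Δ med3Δ (-1.57 ± 0.20, adjusted p = 0.0049). TMA10, a ribosome-associated protein, was at -0.58, -0.46 and 0.46, against 1.39, 1.49 and 1.23 (-1.56 ± 0.27, adjusted p = 0.0189). The higher ones were YAL063C-A (1.25 ± 0.20), SRT1, a cis-prenyltransferase (1.16 ± 0.25), and GTO3, a glutathione transferase (1.07 ± 0.20). The remaining 5, named to complete the set, were GYP8, a Rab GTPase-activating protein, at 1.03, MAL33, a maltose activator, at -1.09, YNL034W at -1.09, the transketolase TKL2 at -1.02 and YMR244W at -1.01. Of the 26 genes 11 kept their call in all 6 fits without 1 array, namely ANB1, CHA1, FIT1, FIT2, FIT3, LSO1, MDH2, POX1, SPS19, YNL018C and YNL146C-A. Of the other 15, GPH1, GTO3, MAL33 and SRT1 lost it in 5 of the 6, each time all but the fit without gal11-myc med3Δ replicate 3. The highest adjusted p among these fits was 0.143 for SRT1, 0.125 for MAL33, 0.112 for TKL2, 0.107 for GTO3, 0.0889 for TMA10 and 0.0603 for YAL063C-A. TMA10 was not called without replicate 1 or 2 of either mutant, and TKL2 not without replicate 1 or 3 of gal11-myc med3Δ or replicate 1 or 2 of gal11Δ med3Δ. YAL063C-A was not called without gal11-myc med3Δ replicate 1 or gal11Δ med3Δ replicate 2. GYP8 was under 2-fold without replicate 1 or 2 of gal11-myc med3Δ or replicate 3 of gal11Δ med3Δ (0.92, 0.98 and 0.92), YMR244W without replicate 3 of gal11-myc med3Δ or of gal11Δ med3Δ (-0.99 and -0.87), and YNL034W without gal11Δ med3Δ replicate 3 (-0.93).

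In the large housekeeping lists few genes passed with all 6 arrays, and for several of them the counts rose with the block or without both arrays numbered 3, where 12.8% of all genes passed higher and 16.3% lower. Of 128 cytosolic ribosomal protein genes 1 passed higher and none lower, with a median of 0.05, beside 0.02 over all genes (3 and 0 with the block, 4 and 0 without both arrays numbered 3). Of 64 ribosome biogenesis genes 2 passed higher and 2, both on chromosome V, lower, with a median of 0.21 (12 and 2 with the block, 19 and 2 without both arrays numbered 3). Of 58 genes of the respiratory chain and ATP synthase 1 passed higher and 2 lower, with a median of 0.20 (16 and 3 with the block, 21 and 6 without both arrays numbered 3). The 35 proteasome genes had a median of -0.18, and the 3 that passed, all lower, were on chromosome V (4 lower with the block; without both arrays numbered 3, 23 passed lower). Of 66 mitochondrial ribosomal protein genes 1, on chromosome V, passed lower (18 without both arrays numbered 3). Among 9 histone genes none passed, with or without the block or both arrays numbered 3.

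The wild type was set beside the mutants as a description, since it shares no array with the comparison. In the 26 called genes outside the strain genes and chromosome V, the wild type mean was within 2-fold of gal11-myc med3Δ for 17 genes and within 2-fold of gal11Δ med3Δ for 7. For the 50 called chromosome V genes these numbers were 48 and 12. There the median gene of the chromosome lay 0.79 above the wild type in gal11Δ med3Δ and 0.04 above it in gal11-myc med3Δ. Shares of all genes were not counted. For FIT1, FIT2, FIT3, LSO1 and ARN2 the wild type mean includes a replicate 3 far above the other 2. For PHO3, for example, the wild type was at 0.51, 0.80 and 0.30, against 0.00, 0.06 and -0.38 in gal11-myc med3Δ and -1.01, -0.96 and -1.49 in gal11Δ med3Δ. For CHA1 and MDH2 the wild type was higher than both mutants, and for POX1 and SPS19 it was lower than both.

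The same contrast was made in CSM, on 6 further arrays. The media share no array, so a difference between media cannot be told apart from one between the 2 sets of cultures. In CSM 43 genes were called higher (0.789%) and 84 lower (1.54%) in gal11-myc med3Δ, and 434 (7.96%) and 534 (9.80%) passed. In both media 30 genes were called in the same direction, 12 of them outside the targeted, strain marker and mating type genes. Across all genes the 2 differences had a Pearson correlation of 0.60, and of 0.27 over the 5169 genes without the strain lists and chromosome V. The genes share the arrays of each medium, so this is a description without a p-value. FIT2 and FIT3 were called higher in CSM too, at 1.24 and 1.28, and so was CWP1 at 2.38. POX1, MDH2 and YNL018C were called lower in both media, in CSM at -1.88, -1.42 and -1.64.

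The test of the difference between the media (CSM difference minus YPD difference, 12 arrays) called 60 genes higher (1.10%) and 89 lower (1.63%). Of the 60, 39 lay on chromosome V, where the median of CSM difference minus YPD difference was 0.68 and the median difference in CSM itself -0.06. Iron genes that were higher in YPD but not in CSM included LSO1, with a CSM difference of -0.06 (-2.73 between media, adjusted p = 3.81e-05), and FIT1, with 0.06 (-1.78, adjusted p = 0.0034). The 5 largest negative differences between media were those of PHO84, SNO1, YGR109W-A, SRL4 and LSO1. PHO84, the high-affinity phosphate transporter, had a difference of 1.20 ± 0.56 in YPD (adjusted p = 0.241 and 0.0204 with the block) and of -2.78 in CSM. SNO1, a vitamin B6 gene, had 0.39 in YPD (adjusted p = 0.108 and 0.0367 with the block) and -2.76 in CSM, and YGR109W-A, the Gag gene of the Ty3 retrotransposon, 0.75 and -2.40. For SRL4 the values were -0.50 (adjusted p = 0.168 and 0.0147 with the block) and -3.24. The 5 largest positive ones were MIG3 (2.37), TIR1 (2.32), HXT4, a hexose transporter (2.08), CEM1 (1.97) and TMA10 (1.86), of which MIG3, TIR1 and CEM1 are chromosome V genes. TIR1 passed in opposite directions, with -1.19 in YPD and 1.12 in CSM.

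**Figure D5:**
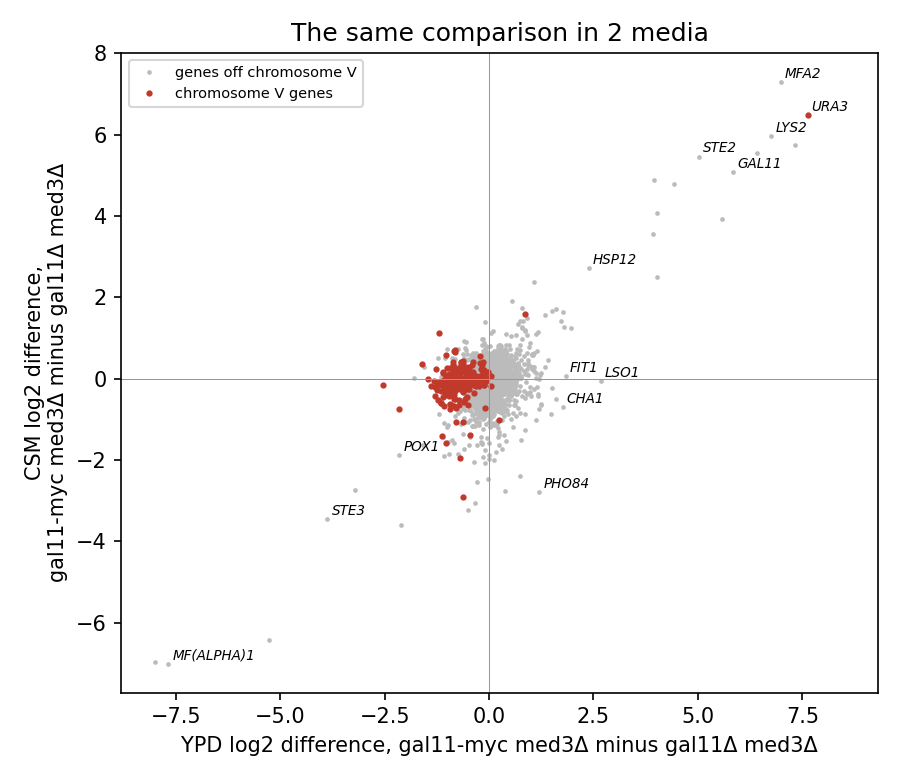
Log2 difference between gal11-myc med3Δ and gal11Δ med3Δ in CSM (vertical axis) against that in YPD (horizontal axis) for all 5449 genes, with chromosome V genes in red. Called mating type and marker genes have the same sign in both media, some with unequal sizes, such as HMRA1 at 7.32 in YPD and 5.75 in CSM. Chromosome V genes are shifted to the left, with a YPD median of -0.80 and a CSM median of -0.06. LSO1, FIT1 and CHA1 lie to the right, with CSM differences of -0.06, 0.06 and -0.71.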

How the data were processed

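The authors deposited 1 table of log2 values for 10928 probe sets on 21 arrays in 7 groups of 3. They were summarised with RMA (version not given in the sources used here), per the submitters' processing notes. In 3 sets of arrays, namely 9 in YPD, 9 in CSM and 3 of strain BY4742, the median of each probe set is exactly 0, so absolute levels and depth are lost and values were compared only within a set. The authors' signed fold changes against wild type were deposited in a second table, made with GeneSpring 11.5.1 per the file headers, and served only as an alternative. Groups and replicate numbers came from the sample titles.

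A single gene symbol was listed for 7244 probe sets, several for 1 and no symbol for 3683. A yeast gene was found for 5498 of the 7244 in the R64 gene table, used for names and gene order only, and 12 symbols were brought up to date. Probe sets of a gene were averaged (47 genes), which left 5449 genes. The mutants were compared with limma 3.58.1 in R 4.3.3 (lmFit and eBayes, 6 arrays, 4 residual degrees of freedom, 2-sided), with Benjamini-Hochberg adjustment over all genes. The interaction of strain and medium used 12 arrays. The fits were tested on simulated data. An exact permutation test of 3 against 3 arrays cannot go below p = 0.1. The number of arrays limits the precision.

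Same-numbered arrays of the 2 mutants deviated together from their group means, with correlations over genes of 0.47, 0.47 and 0.61. Arrays numbered 1 and 2 also correlated across numbers, at 0.32 and 0.26. Number 3 against the others gave -0.51 to -0.43. Deviations from a mean of 3 arrays sum to 0, so these values are not independent, and mainly number 3 stood apart. Fits with the replicate number as a block, which pair same-numbered arrays, are given where they change a call. This pairing is read from the data, and the labels do not say what a number stands for.

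The members and 41 gene lists were chosen with earlier results of these data known. The text names all strain, mating type and Mediator genes (the 19 head, middle and kinase genes as a summary with 2 examples), up to 15 called genes in each direction with the largest differences and groups that do not overlap, up to 4 genes a list with the largest differences, 5 genes in each direction of the interaction and 4 genes of a chromosome arm whose median lay more than 0.25 from that of all genes, and it summarises the rest. Genes named outside this rule are said to be so. A search of promoters for motifs was planned and not run, since promoter sequences were not used here.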

Additional observations from a re-analysis of the deposited data

Results flagged for a closer look

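A reporter control probe set, which stands for no yeast gene, was at -0.25, -0.20 and 0.00 in gal11-myc med3Δ, against 10.67, 10.66 and 10.71 in gal11Δ med3Δ and 0.00, -0.24 and -0.21 in the wild type, all in YPD. Its difference of -10.83 was larger in size than that of any gene measured, and it was singled out because it lies outside the genes tested.

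The following genes were singled out because the difference between the mutants was not the same in CSM and YPD (limma interaction, adjusted p under 0.05 and at least 2-fold). Each value is the CSM difference minus the YPD difference on the log2 scale. Among strain and mating type genes it was -1.14 for URA3, -1.65 for MFA1, -1.16 for MF(ALPHA)2, -1.51 for SAG1, 1.02 for HMLALPHA1 and -1.57 for HMRA1. For YNL146C-A, which is counted outside these lists, it was -1.52. All of these were called in the same direction in both media.

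Chromosome V genes made up most positive values, beside a chromosome V median of -0.80 in YPD and -0.06 in CSM. The value was 2.37 for MIG3, 2.32 for TIR1, 1.97 for CEM1, 1.53 for SSA4, 1.44 for DDI1, 1.25 for GIP2, 1.22 for MAG1, 1.09 for YER034W, 1.07 for AIM11 and 1.06 for HAT2. The carnitine acetyltransferase gene YAT2, of the same chromosome, had the opposite sign at -1.26, being lower by -1.95 in CSM and -0.69 in YPD.

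Nutrient genes gave mostly negative values. These were -3.98 for PHO84, -2.73 for LSO1, -1.78 for FIT1, -2.47 for CHA1, -2.35 for SFC1, -1.59 for PUT4, -1.28 for ARG1, -1.10 for LYS1, -1.13 for URA1 and -3.15 for SNO1. They were -1.13 for GPH1, -1.33 for ANB1, -1.11 for YAL063C-A, -3.14 for YGR109W-A and -2.74 for SRL4. Positive values off chromosome V were 1.31 for CWP1, 1.86 for TMA10 and 2.08 for HXT4. PHO84, SFC1, PUT4, SNO1, YGR109W-A, SRL4 and HXT4 did not pass in YPD with all 6 arrays and no replicate block. With the block PHO84, PUT4, SNO1 and SRL4 passed there (adjusted p = 0.0204, 0.0226, 0.0367 and 0.0147), and without both arrays numbered 3 all of the 7 but HXT4 did.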

How the results depend on the processing

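Against 29 genes called higher, the fit with the replicate block called 45, that with no moderation of the spread 19, and that without the 2 arrays numbered 3, chosen after seeing the data, 71. Thresholds of any size, 1.5-fold and 4-fold gave 125, 66 and 14 genes higher and 336, 216 and 9 lower, against 65 lower at 2-fold. By the authors' deposited fold changes, 59 genes were at least 2-fold higher with no test, where the values used here gave 56. Genes called lower numbered 13 without chromosome V genes and 14 with these shifted to the median of the others, both alternatives added after the shift was seen. Leaving out 1 array in turn gave 21 to 86 genes higher and 47 to 88 lower, the largest counts without gal11-myc med3Δ replicate 3. The cause was not tested. With all 21 arrays, 42 genes were called higher and 68 lower, and with the 9 YPD arrays 31 and 65. In the difference between media, 19 genes in place of 60 were called higher without genes of chromosomes II and V. Of the 60, 0 lay on chromosome II and 39 on chromosome V. Leaving out 1 array gave 47 to 82 genes higher and 78 to 132 lower in that difference. The median of chromosome V genes was -0.80 and ran from -0.80 to -0.77 when 1 array was left out, and was -0.78 without the 2 arrays numbered 3.

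Of 114 named genes, 104 kept their direction and side of the call with the replicate block and the other 10 became called, so the pairing ended no call of a named gene. The sign turned only for genes that were not called in YPD. Without the 2 arrays numbered 3, SIN4 was at -0.038 and NUT1 at -0.064, and with chromosome V shifted YAT2 was at 0.025. With 1 array left out, SIN4 ran from -0.065 to 0.11, NUT1 from -0.056 to 0.040, PHM8 from -0.25 to 0.71, YEL076C from -0.040 to 0.16 and YEL076C-A from -0.29 to 0.35. With chromosome V shifted, 19 named genes lost their call, the 17 of that chromosome and SRT1 and MAL33. With no moderation of the spread 22 named genes lost it, LEU2 among them. By the authors' deposited table, with no test, PGD1 was at 0.64 in place of 0.20 and ANB1 at 1.24 in place of 1.09. With each array centred on its median none of the 114 genes changed its call. A filter on dim probe sets was not possible, because the deposited centring leaves no signal over background.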

Other observations

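Lists not described above held few genes that passed with all 6 arrays, where 2.29% of all genes passed higher and 6.17% lower. Of 53 meiosis and sporulation genes 2 passed higher and 4 lower, 3 of the 4 on chromosome V (7 and 8 with the replicate block, 14 and 8 without both arrays numbered 3). Of 13 seripauperin genes, a subtelomeric family of cell wall proteins whose members are so alike that probe sets may read several, none passed higher and 2 lower, with a median of -0.25 (6 lower with the block, 4 without both arrays numbered 3). Of 20 drug resistance genes of the activators Pdr1 and Pdr3, 2 passed lower and none higher (without both arrays numbered 3, 4 and 3). Of 31 ergosterol genes 1 passed higher and 1 lower, and of 17 purine synthesis genes 1 passed higher. Without both arrays numbered 3, 5 ergosterol genes passed higher and 2 lower, and 2 purine genes higher and 6 lower. Both DNA damage genes that passed, of 15, were lower and on chromosome V (without both arrays numbered 3, 3 passed higher and 3 lower). Of 13 genes for serine, threonine and aromatic amino acid breakdown 1 passed higher, CHA1, and 1 lower (2 and 3 with the block, 2 and 4 without both arrays numbered 3). None of 9 COS genes and none of 15 NAD synthesis genes passed. Without both arrays numbered 3, 2 COS genes passed higher and 1 lower, and 1 NAD gene passed higher.

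Among the 5430 probe sets with no yeast gene in the gene table, 6 were called between the mutants and 248 had an unadjusted limma p under 0.05.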
